A study of Drosophila melanogaster with 4 samples.

Results

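The genes described here build the presynaptic terminal and carry the electrical signal of nerve cells in Drosophila melanogaster. They were chosen by name: nSyb, Syx1A, Syt1, unc-13 and brp for transmitter release, cac, para and Sh for voltage-gated ion channels, and elav for neuronal identity. Every probe set annotated to exactly 1 of them was taken, whatever its value, which gave 7 of the 9 genes and 13 probe sets, of 13966 on the array apart from controls. The array names 10844 genes in this way. Sh had 4 probe sets, brp had 3, cac had 2, and nSyb, unc-13, para and elav had 1 each. Syt1, the calcium sensor of synaptic vesicles, and Syx1A, a SNARE protein of the plasma membrane, were not analysed here. Of the 7 measured genes, cac, para, Sh and elav lie on the X chromosome, nSyb on arm 3L, brp on arm 2R and unc-13 on chromosome 4, per RefSeq (Release 6 plus ISO1 MT).

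RNA from whole adult flies was measured on 4 one-colour Affymetrix arrays, 1 sample each, and all 4 belong to a single baseline group. Per the labels, the animals lost yeast from their food early in the third larval instar, were kept without it until 4 days after emergence, and were sampled immediately before a refeeding course began. The libraries, called 1, 2, 3 and 4, carry the labels hour -4, -3, -2 and -1, an order assigned for a change-point analysis and not stated to be the time of death. Sources used here name neither sex, strain or genotype nor how many flies made up a sample, so p-values measure the spread between these samples only, which may be technical. Other diets and times are not analysed here, and no control group stands beside the baseline.

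At a chemical synapse an action potential, carried by sodium channels such as para and ended by potassium channels such as Sh, reaches the terminal and opens the calcium channel encoded by cac. The scaffold protein encoded by brp holds these calcium channels close to the docked vesicles, and the unc-13 protein makes vesicles ready for release. The vesicle SNARE protein encoded by nSyb then zips together with SNARE partners on the plasma membrane and drives fusion. The elav protein binds RNA in nerve cells and serves as a general marker of them. Nerve cells are a small share of a whole fly, and in RNA from whole animals fewer nerve cells and less RNA per nerve cell cannot be told apart.

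Of the 13 probe sets, 3 were brighter in every library than any negative control: those of nSyb and unc-13 and 1 of brp. The negative controls are 23 probe sets designed against mouse, yeast and bacterial sequences other than the hybridisation spikes, whose median intensity was 46.1 to 48.7 over the libraries and whose highest was 119 to 133. The median over all probe sets apart from controls was 112 to 113, below the highest negative control in every library. All 4 Sh probe sets, 1 further brp probe set and those of para and elav lay above the median control in every library, but not above the highest in every one. Both cac probe sets and the third brp probe set did not clear the median control in every library. Intensities of different probe sets depend on the probes and are not compared with each other.

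**Figure D1:**
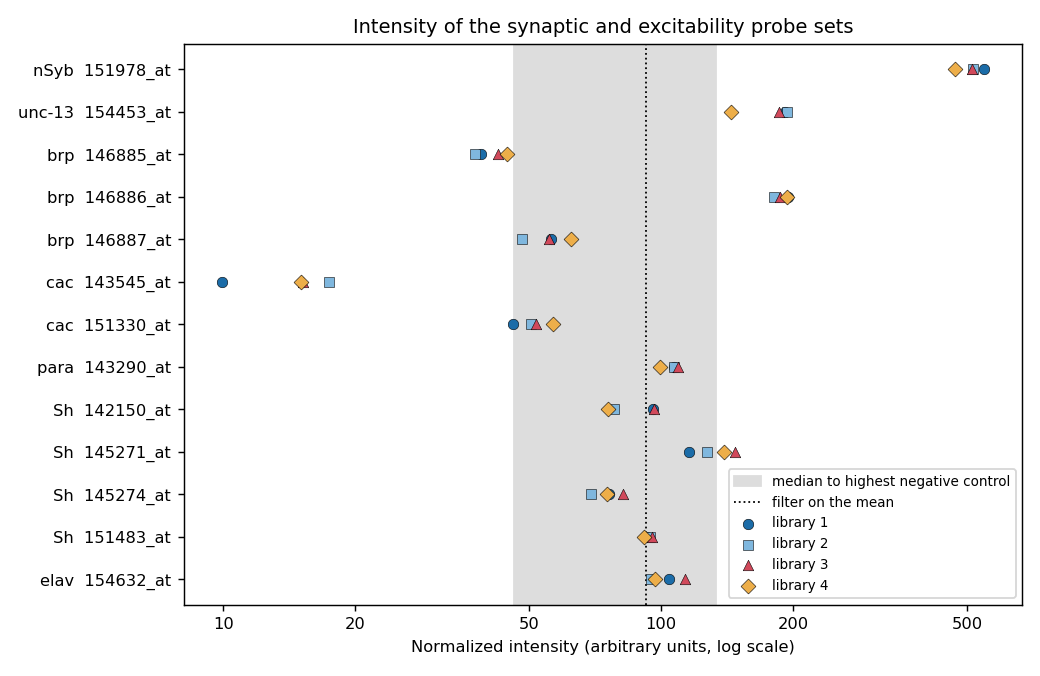
Normalized intensity (arbitrary units, log scale) of each of the 13 probe sets, 1 row each, with 1 marker per library. The grey band runs from the lowest median to the highest single negative control, and the dotted line marks the filter of 92.5 on the mean: the rows of nSyb, unc-13 and brp 146886_at lie to the right of the band, and both cac rows lie left of the filter.

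The 4 libraries gave closely similar values for most of these genes, and unc-13 had the widest spread among those tested. Intensities under 57.1 (the 20th percentile over the table) were set to that value before log2 was taken, and probe sets with a mean above 92.5, the 40th percentile, were tested. That left 7 of the 13 probe sets, from 6 genes, in a test over 8379 probe sets. The SD of log2 intensity was 0.026 to 0.203 over the 7, with a median of 0.092, against a median of 0.076 over all tested probe sets. Relative to the SD expected at like intensity, the median ratio was 0.955 for the 7 and 0.927 for all tested probe sets. In the limma-based variability test 0 of the 7 passed an adjusted p of 0.05, where 0.274% of all tested probe sets did, and 1 of the 7 had an unadjusted p under 0.05, against 5.53% of all.

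The vesicle SNARE gene nSyb (probe set 151978_at) had intensities of 547, 516, 512 and 469 in libraries 1, 2, 3 and 4, or 511 ± 32.3 (SD, n = 4). Library 4 was the lowest and library 1 the highest, 1.17-fold apart. Its SD stood at 0.955 times the expected one (limma-based adjusted p = 0.997). Library 4 differed from the mean of the other 3 by a log2 value of -0.16 (95% interval -0.37 to 0.04), which did not pass in limma (adjusted p = 0.611). A spread of this size sits near the middle of the array, where 52.4% of tested probe sets had a smaller ratio.

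The vesicle priming gene unc-13 (154453_at) had 191, 194, 186 and 144 in libraries 1, 2, 3 and 4, or 179 ± 23.5 (SD, n = 4). The first 3 libraries lay within a narrow range and library 4 stood below all of them, still above the 133 of its brightest negative control. Its SD was 2.63 times the expected one, larger than for 97.5% of tested probe sets, with an unadjusted p of 0.0158 and an adjusted p of 0.638 in the limma-based test. Library 4 differed from the other 3 by a log2 value of -0.40 ± 0.07 (SE, 1 library against 3), with a 95% interval of -0.57 to -0.23. This too failed the correction over all probe sets (limma, unadjusted p = 0.000519, adjusted p = 0.554), in a comparison where 0.0119% of probe sets passed. With 1 library on one side, the test assumes that library 4 varies like the others.

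The call for unc-13 turned on library 3. With library 3 left out, unc-13 was lower in library 4 than in libraries 1 and 2 by a log2 value of -0.42 ± 0.07 (SE), with a limma adjusted p of 0.00103. In that comparison 6% of all tested probe sets passed, 395 of the 503 being lower in library 4, and unc-13 was the 1 that passed of the 7. Within unc-13 only libraries 1 and 2 then inform the spread, which limma moderates toward that expected at like intensity. The SE therefore rests largely on the other probe sets. The fitted difference was close in both comparisons, -0.40 and -0.42. Technical controls also differed between libraries: 3' probe sets of actin, GAPDH and eIF-4a outshone their 5' partners by an average log2 ratio of 1.14, 1.05, 1.44 and 1.40 in libraries 1, 2, 3 and 4. The geometric mean of the 9 hybridisation spikes in libraries 2, 3 and 4 was 0.927, 1.59 and 1.29 times that in library 1. The part of these controls in the unc-13 result was not tested.

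The active zone scaffold gene brp had 3 probe sets that differed in how far they rose above background. Probe set 146886_at had 195, 181, 187 and 194 in libraries 1, 2, 3 and 4, or 189 ± 6.53 (SD, n = 4), a coefficient of variation of 3.45%. Its SD was 0.644 times the expected one. The largest of its 4 library differences was that of library 2, with a log2 value of -0.09 (95% interval -0.28 to 0.11, limma adjusted p = 0.999). Probe set 146885_at had 38.7, 37.7, 42.5 and 44.4, below the median negative control in every library. Probe set 146887_at had 56.0, 48.1, 55.4 and 62.3, and only library 4 lay above 57.1. All 3 probe sets were lowest in library 2, but the order of libraries in the 2 dim ones says little about brp.

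The calcium channel gene cac did not stand out from background in these libraries. Probe set 143545_at had 9.93, 17.4, 15.3 and 15.02 in libraries 1, 2, 3 and 4, and exceeded at most 1 of the 23 negative controls in any library. Probe set 151330_at had 45.9, 50.5, 51.9 and 56.7, all under 57.1, and exceeded 11 to 17 of the 23 negative controls. Neither entered the test, so these values say little about cac.

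The sodium channel gene para (143290_at) had 107, 107, 109 and 99.5 in libraries 1, 2, 3 and 4, or 106 ± 4.28 (SD, n = 4). Library 4 was lowest, by a log2 value of -0.11 against the other 3 (95% interval -0.29 to 0.06, limma adjusted p = 0.669). The probe set exceeded 21 or 22 of the 23 negative controls in each library. RefSeq lists 60 transcripts for para, and which of them the single probe set detects is not stated in the sources used.

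The potassium channel gene Sh, named for the leg shaking of its mutants, had 4 probe sets that did not vary in the same way. RefSeq lists 17 transcripts for the gene, and which of them each probe set detects is not stated in the sources used. The brightest library was library 3 for all 4. Over all 13966 probe sets the share with their highest value in library 3 was 26%. Probe set 145271_at had 116, 127, 147 and 139 in libraries 1, 2, 3 and 4, or 132 ± 13.7 (SD, n = 4), lowest in library 1. Probe set 151483_at had 92.9, 94.1, 95.1 and 91.3, or 93.3 ± 1.65 (SD, n = 4), and was nearly flat. Probe set 142150_at, with 96.1, 78.2, 96.3 and 75.7, was high in libraries 1 and 3 and low in libraries 2 and 4. Probe set 145274_at had 75.9, 69.2, 81.8 and 75.3, with library 2 the lowest. The last pair missed the filter on the mean and was not tested.

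For Sh 145271_at the SD was 1.86 times the expected one (limma-based adjusted p = 0.941), and for Sh 151483_at it was 0.317 times, smaller than for all but 4.13% of tested probe sets. Library 1 differed from the other 3 at 145271_at by a log2 value of -0.25 (95% interval -0.48 to -0.02), with an unadjusted p of 0.0362 and an adjusted p of 1 in limma. With library 4 left out, 145271_at was higher in library 3 than in libraries 1 and 2 by 0.28 ± 0.08 (SE, log2), with a limma adjusted p of 0.0308, in a comparison where 6.02% of all tested probe sets passed. With all libraries the difference of library 3 was 0.21 (adjusted p = 0.815). At 151483_at the corresponding difference without library 4 was 0.02 (95% interval -0.15 to 0.20, adjusted p = 0.92). The 3' to 5' ratio and the spike values given above were also higher in libraries 3 and 4, in which 145271_at had its 2 highest values. Their part in the result was not tested.

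The neuronal marker gene elav (154632_at) had 104, 94.9, 113 and 96.7 in libraries 1, 2, 3 and 4, or 102 ± 8.38 (SD, n = 4). Library 3 was the highest, by a log2 value of 0.20 against the other 3 (95% interval 0.00 to 0.40), which did not pass (limma, unadjusted p = 0.0517, adjusted p = 0.767). As a check of nerve cell RNA in these samples elav is weak, since it exceeded 21 or 22 of 23 negative controls but never the brightest.

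**Figure D2:**
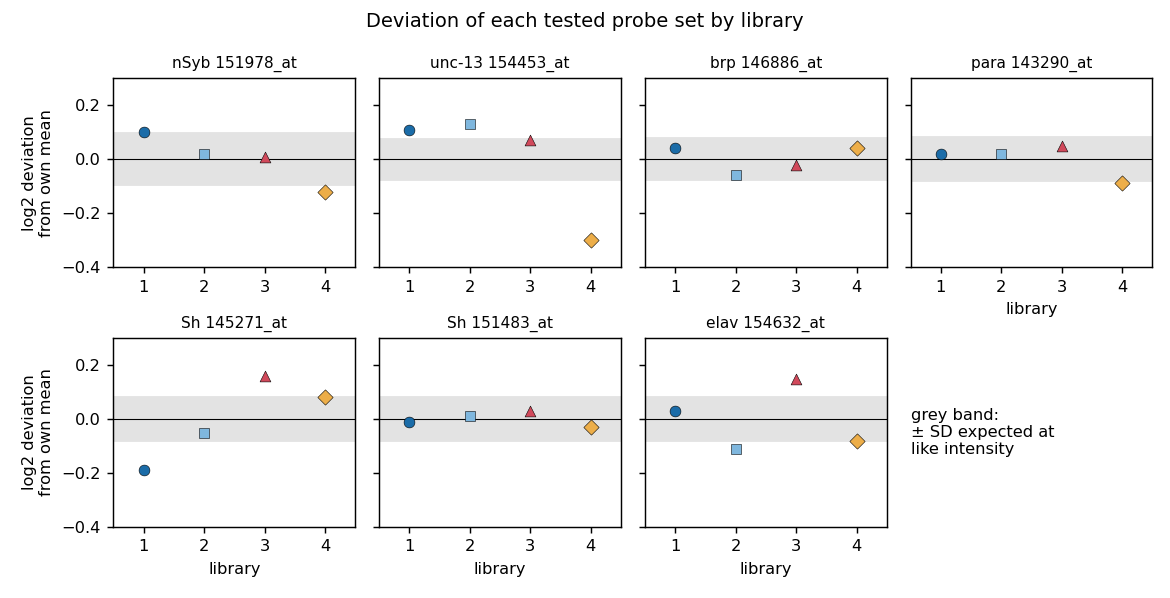
Log2 deviation of each of the 7 tested probe sets from its own mean over the 4 libraries, 1 panel each, with a grey band for ± the SD expected at like intensity. Library 4 of unc-13 lies at -0.30, far outside its band, while all 4 libraries of brp 146886_at and of Sh 151483_at lie inside theirs.

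Set against the labelled hours, the 7 probe sets showed no slope that passed, and 0% of all tested probe sets passed in limma. Slopes with an unadjusted p under 0.05 were those of unc-13 and Sh 145271_at, 2 of the 7, against 11.6% of all tested probe sets. The slope was -0.13 ± 0.04 per labelled hour (SE, log2) for unc-13 and 0.10 ± 0.04 for Sh 145271_at, with limma adjusted p of 0.365 and 0.375. These values had opposite signs. For nSyb the slope was -0.07 ± 0.03 (limma adjusted p = 0.463), and for para, brp 146886_at, Sh 151483_at and elav it lay between -0.03 and 0.00. Without library 3 the slope of unc-13 passed (-0.15 ± 0.03, limma adjusted p = 0.00622), where 3.83% of all tested probe sets did. Without library 1, 2 or 4 it did not pass, at -0.22, -0.12 and -0.02 (limma adjusted p = 0.949, 0.625 and 0.996). The unc-13 intensities, 191, 194, 186 and 144 in libraries 1, 2, 3 and 4, fell mainly in library 4.

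Counted over single libraries, 0 of the 7 probe sets passed for library 1, 2, 3 or 4 against the other 3 in limma. The shares over all tested probe sets were 0%, 0.107%, 0.704% and 0.0119%. With an unadjusted p under 0.05 there was 1 member for library 1, 0 for library 2, 0 for library 3 and 1 for library 4, against 2.05%, 2.83%, 6.46% and 8.63% of all. The median deviation of the 7 probe sets from their own means was 0.03, 0.01, 0.05 and -0.08 in libraries 1, 2, 3 and 4, against 0.01, 0.01, -0.01 and -0.01 over all tested probe sets. Library 4 was the lowest for 4 of the 7 and library 3 the highest for 4 of the 7. Over all 13 member probe sets, tested or not, 5 were lowest in library 4, 5 were lowest in library 2 and 6 were highest in library 3. The corresponding shares over all 13966 probe sets, tested or not, were 28%, 23.4% and 26%.

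**Figure D3:**
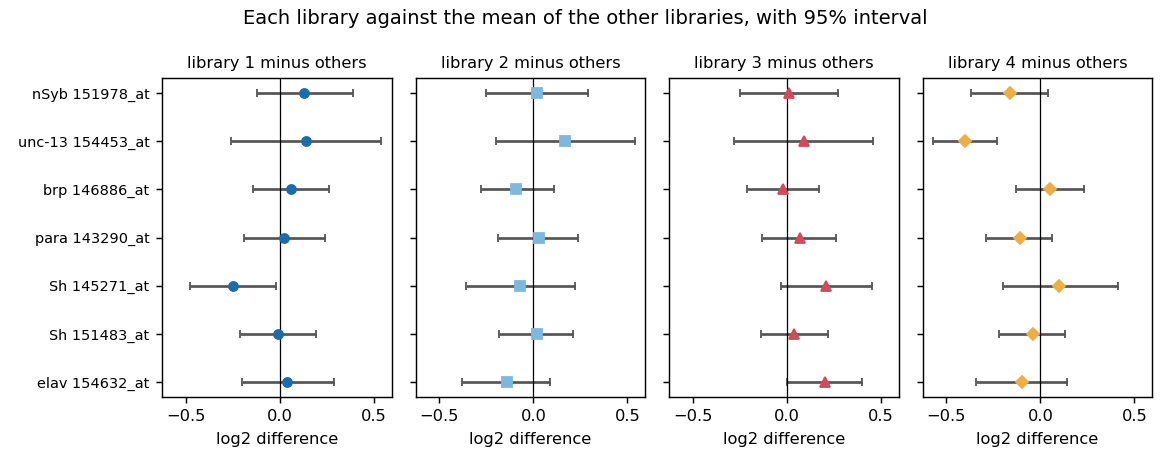
Log2 difference between each library and the mean of the other 3 (x axis, 1 panel per library) for the 7 tested probe sets, with 95% intervals from limma before correction for multiple tests. The interval of unc-13 in library 4 (-0.57 to -0.23) and that of Sh 145271_at in library 1 (-0.48 to -0.02) exclude 0.

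Likeness between profiles was measured as the root mean square difference, over the 4 libraries, of log2 deviations from the own mean. Among the 7 probe sets para and Sh 151483_at were the closest pair (0.0319), and the nearest to unc-13 was nSyb (0.111). Outside these genes the profiles nearest to unc-13 were those of Tim8, a mitochondrial import gene (0.0225), Fkbp39, an immunophilin gene (0.0265), and CG5973 (0.0292). Tim8 had 471, 475, 463 and 367 in libraries 1, 2, 3 and 4, and thus the same low value in library 4. Nearest to the mean profile of the 7 were CG44837 (0.00466), Arp10 (0.00541) and CG5087 (0.00639). These matches over 4 libraries are a description, with no test.

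None of the other tested genes in the nerve cell and glial lists passed in the comparisons of all 4 libraries. In RNA of whole flies, which cells gave the RNA of these genes was not measured. A total of 7 lists were used: release machinery, vesicle recycling, ion channels, neuronal identity and adhesion, transmitter synthesis and transport, transmitter receptors, and glial markers. Leaving the members out, they held 127 tested probe sets from 95 genes, of which 0 passed for variability, for any library or for the labelled hour (limma). Over all tested probe sets the passing shares were 0.274% for variability and 0% for the labelled hour. Those for single libraries are given above. A count of 0 among 127 is near these shares. Of the 127, 5 had an unadjusted variability p under 0.05, or 3.94%, against 5.53% of all tested probe sets. For the labelled hour 11.6% of all tested probe sets had an unadjusted p under 0.05, against 9 of the 127. Their median SD was 0.071 and their median ratio to the expected SD 0.863, against 0.076 and 0.927 over all tested probe sets. Their median deviation was 0.01, -0.01, 0.01 and -0.02 in libraries 1, 2, 3 and 4. By list, the median deviation in library 4 was -0.08 for vesicle recycling and -0.07 for transmitter synthesis and transport, like the -0.08 of the members, and between -0.04 and 0.01 for the other 5 lists, some of which include members. It was also -0.08 for muscle and -0.07 for photoreceptor markers, and differences between lists were not tested.

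In the list of release genes, 20 probe sets of 12 genes were tested, and unc-13 had the smallest variability p of the list. The gene at the middle of the list was Rbp, which encodes a binding partner of the active zone calcium channel, with 113, 121, 126 and 116 in libraries 1, 2, 3 and 4. In vesicle recycling the smallest p belonged to the amphiphysin gene Amph (198, 210.3, 185 and 169.5, limma-based adjusted p = 0.96), and the middle gene was the auxilin gene aux (116 to 131). Of 33 tested ion channel probe sets Sh 145271_at had the smallest p, and the calcium channel gene Ca-alpha1T, with 94.8 to 106, stood in the middle. These 3 lists had median ratios to the expected SD of 0.824, 1.09 and 0.846.

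Among neuronal identity genes Rbp9, an RNA-binding protein gene of the elav family, had the smallest p, with 215, 169, 181 and 171 in libraries 1, 2, 3 and 4 (probe set 152149_at, limma-based adjusted p = 0.893). The ankyrin gene Ank2 stood in the middle, at 339 to 380. For transmitter synthesis and transport the smallest p was that of Ace, the acetylcholinesterase gene, with 134, 122, 107 and 98.7 (adjusted p = 0.775), and VGAT, the vesicular GABA transporter gene, was in the middle at 173 to 193. For receptors they were Nmdar2, an NMDA receptor subunit gene (197, 178, 235 and 198, adjusted p = 0.892), and nAChRbeta2, a nicotinic acetylcholine receptor subunit gene (313 to 350). In the glial list nrv2, a sodium pump subunit gene, had 131, 103, 105 and 91.5 (adjusted p = 0.659), and the glial transcription factor gene repo stood in the middle at 154 to 173.

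**Figure D4:**
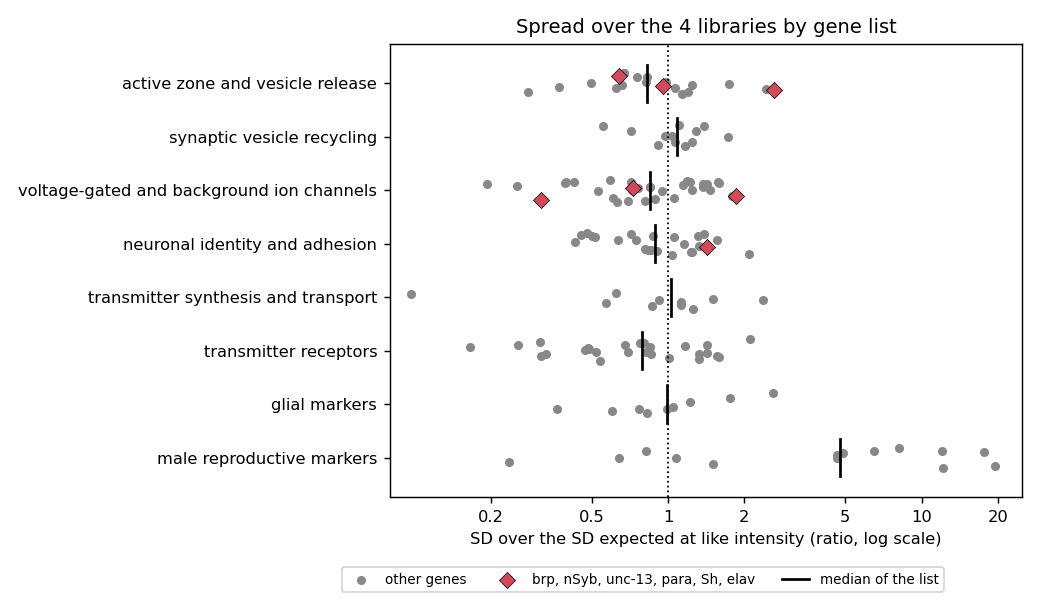
Ratio of each tested probe set's SD to the SD expected at like intensity (x axis, log scale), 1 point per probe set and 1 row per gene list, with diamonds for the genes described here and bars for list medians. The nerve cell and glial lists centre between 0.789 and 1.09, and the male reproductive list, shown for contrast, at 4.78. The lists were chosen with earlier results of these data known.

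When 1 of the last 2 libraries was left out, some of these genes passed as well. Their names were chosen after their values were seen. Without library 3, 3 of 128 tested probe sets, or 2.34%, differed in library 4 against 6% of all tested probe sets: Amph by -0.27, the neuroligin gene Nlg1 by -0.26 and Ace by -0.37 (log2), all lower. Without library 4, 6 of 128, or 4.69%, differed in library 3 against 6.02% of all. Nmdar2 (0.33) and the synapse protein gene Sap47 (0.35) were higher. Lower were the synapsin gene Syn (-0.65), Hk, which encodes a beta subunit of Sh channels (-0.27), Ace (-0.26) and, from the glial list, Indy (-0.27). The cells of the whole fly that gave the Indy RNA were not identified. Hk 144789_at had 119, 116, 97.2 and 113 in libraries 1, 2, 3 and 4, lowest in library 3. The second Hk probe set, 153442_at, had 271, 282, 244 and 251 and was lowest in library 3 too, without passing. Syn (121, 95.6, 68.6 and 74.25) missed the filter when all 4 libraries were used. These shares are below the background in both comparisons.

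Library 3 stands apart from the rest in male reproductive genes and in gut and fat body genes. Of 14 tested male reproductive probe sets 9 were higher in library 3 than in the other 3 (limma adjusted p under 0.05), and the summed intensity of all 22 measured was 6431 in library 3, against 3115 to 3135 in the other libraries. Of 11 tested gut and fat body probe sets 2 were called in library 3 in limma, the amylase gene Amy-d (244, against 361 to 446 in the other libraries) and the fatty acid synthase gene FASN1 (277, against 407 to 444), both lower. In both lists the share called exceeded that of all tested probe sets for library 3, which is given above. Since the lists were chosen with earlier results of these data known, this comparison is a description and no independent support. The summed intensity of the 11 gut and fat body probe sets was 17642 in library 3, against 22374, 22823 and 20189 in libraries 1, 2 and 4. Bright genes weigh most in this sum. The brightest, betaTry, had 6521, 6686, 5079 and 5283 in libraries 1, 2, 3 and 4 and was not called. Markers of muscle were above the highest negative control in every library for 12 of 15 probe sets and those of photoreceptors for 5 of 6. The same held for 13 of 35 release, 6 of 15 vesicle recycling, 18 of 52 ion channel and 14 of 31 neuronal identity probe sets. It held for 7 of 16 transmitter synthesis and transport, 14 of 39 receptor and 6 of 14 glial probe sets. Some of these lists include members. The summed intensity of the 14 glial probe sets was 3252, 3294, 3080 and 3168 in libraries 1, 2, 3 and 4. That of the 13 female reproductive probe sets was 2979, 3155, 2840 and 2930. The part of male, gut or fat body RNA in the library 3 values of Sh and elav was not tested.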

How the data were processed

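Total RNA of whole flies was hybridised to Affymetrix Drosophila arrays, 1 sample per array. The table holds linear intensities as the authors deposited them, normalized with dChip on an invariant set of probes, per the labels. No dChip version, background model or detection call is stated in the sources used. An invariant set supposes that the bulk of transcripts is stable. Arrays have no read depth, and their number, 4, limits the precision.

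Of the 14010 probe sets, 44 controls entered no test. Of the rest, 12443 matched 1 gene in the platform annotation, 327 several and 1196 none. Symbols of 12394 were updated by gene identifier to RefSeq's table (Release 6 plus ISO1 MT). No coordinates or sequences were used. Values were floored at the 20th percentile (57.1) and put on a log2 scale, and the 8379 probe sets with a mean above the 40th percentile were tested (R 4.3.3, limma 3.58.1, statmod 1.5.0). A set of 3 tests was run over all of them, with Benjamini-Hochberg adjustment and a threshold of 0.05. The first set the variance over the libraries against the prior variance at like intensity (robust, trended, 7.26 prior degrees of freedom, upper tail of F). The others, two-sided in limma, were of each library against the rest and of a slope over the labelled hour. The tests were tried on simulated data drawn from the model that they assume, which cannot show how they hold on these arrays. List genes named are those with the smallest variability p and that at the middle of the list by SD ratio, with exceptions stated in the text. The genes and lists were chosen with earlier results of these data known. Settings were varied one at a time.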

Additional observations from a re-analysis of the deposited data

Results flagged for a closer look

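Of the 13 probe sets, 1 had a library far from the others. For unc-13, library 4 had an intensity of 144.2, and the nearest of the other 3 had 186.4. That gap is 0.841 of the whole range, above Dixon's 95% critical value for 4 samples. Chance alone flags about 1 in 20 groups, and 13 were examined. The next largest gap was that of para, also for library 4 (0.746, at 99.5 against 107 in the nearest library). It was followed by the dim cac 143545_at, lowest in library 1 (0.681). For nSyb, lowest in library 4, the gap was 0.555.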

How the results depend on the processing

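The filter at the 60th percentile left 3 of the 7 tested probe sets, and 0 were called. Setting the first 2 labelled hours against the last 2 also called 0. A count of 0 members called for variability, for library 1 and for library 2 held in the alternatives run: floors, offset, filters, quantile normalization, median centring, other priors and leaving out a replicate. Leaving out a replicate gave 0 to 1 called members over the labelled hour, for library 3 and for library 4. The member was unc-13 in library 4 and over the hour without library 3, and Sh 145271_at in library 3 without library 4. In the comparisons of 1 library with 2, only libraries 1 and 2 inform a probe set's own spread, which limma moderates toward that expected at like intensity. With no filter, 1 member was called in library 4, brp 146887_at, whose other 3 libraries were all at the floor, so their spread was 0 by construction. With neither floor nor filter, which was added after seeing the data, all 13 probe sets entered and 0 were called. The median SD of 0.092 was 0.052 to 0.112 with a replicate left out, 0.060 after quantile normalization and 0.117 with neither floor nor filter. Of 334 recomputed single values, 325 kept sign and side of the threshold, and 3 passed only with a replicate left out. The other 6 changed sign, all slopes near 0 without 1 replicate: para (-0.0533 to 0.0167 over the 4 leave-one-out settings), brp 146886_at (-0.0297 to 0.05), Sh 151483_at (-0.0219 to 0.0172) and elav (-0.0298 to 0.0582). No paired analysis was possible because the samples form a single group.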
